A study of Rattus norvegicus with 17 samples.

Results

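Neurons with and without transcripts of Trpv1, the heat- and capsaicin-gated ion channel, were compared within 1 class of rat dorsal root ganglion neurons, those that carried transcripts of the adhesion molecule gene Clmp. The cells were selected on measured values. A cell entered when it had at least 2000 detected genes and at least 100000 UMIs (unique molecular identifiers, each counting 1 captured transcript), at least 30 CPM (counts scaled to 1000000 per cell) of Clmp, and under 300 CPM of Sst and Nppb together, which are markers of itch neurons. Of 1040 cells in 16 batches, 554 passed the limits on genes and UMIs, and 179 of these were Clmp neurons. Of the 179, 31 had at least 20 CPM of Trpv1 and are called Trpv1-positive, 118 had under 5 CPM and are called Trpv1-negative, and 30 lay between and were not compared. The 5 batches that held at least 2 cells on both sides, with 21 positive and 49 negative cells, carried the comparison.

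The series measured gene expression in single neurons of the L4 and L5 ganglia of adult male Sprague-Dawley (SD) rats. The rats had received no injury or drug, so all cells share 1 genotype and 1 label, though their time after plating may differ. Neurons were dissociated, plated and picked one by one with a mouth pipette, and their polyadenylated RNA was amplified with a variant of Smart-seq2 that keeps the 3' end of each transcript. The protocols describe picking 15 min and 72 h after plating, with at least 5 rats at each time point, but the sources used here do not say when a batch was picked or which rats it came from. Batches therefore served as the replicates. The p-values measure how the difference between the sides varied from batch to batch, not how levels differed between batches. That variation may be technical, and it includes the sampling of few cells per batch.

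Peptidergic nociceptors are the sensory neurons that release the peptides CGRP and substance P from their peripheral and central endings. Trpv1 is a cation channel opened by noxious heat, protons and capsaicin, and its opening in such endings drives burning pain and peptide release. Kinases such as protein kinase C epsilon are known to sensitise the channel, so the peptides, receptors, partner channels and kinases were the genes of first interest.

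Trpv1 was the gene that split the cells, and its values are given here as a description. In the 31 positive cells Trpv1 ran from 21.9 to 211 CPM with a median of 42.4, resting on 3 to 131 UMIs a cell. In the 118 negative cells the highest value was 4.98 CPM, and 100 of them had no Trpv1 UMI. A count of 0 allows up to 3 UMIs, which came to a median of 11.1 CPM in those 100 cells and to 20 CPM or more in 18 of them, so these 18 cells could hold Trpv1 above the positive threshold without showing it. That limit covers counting error only. The cells between the thresholds ran from 5.74 to 19.4 CPM. At the Clmp threshold, the nearest cell inside had 30.1 CPM and the nearest outside 29.8.

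**Figure D1:**
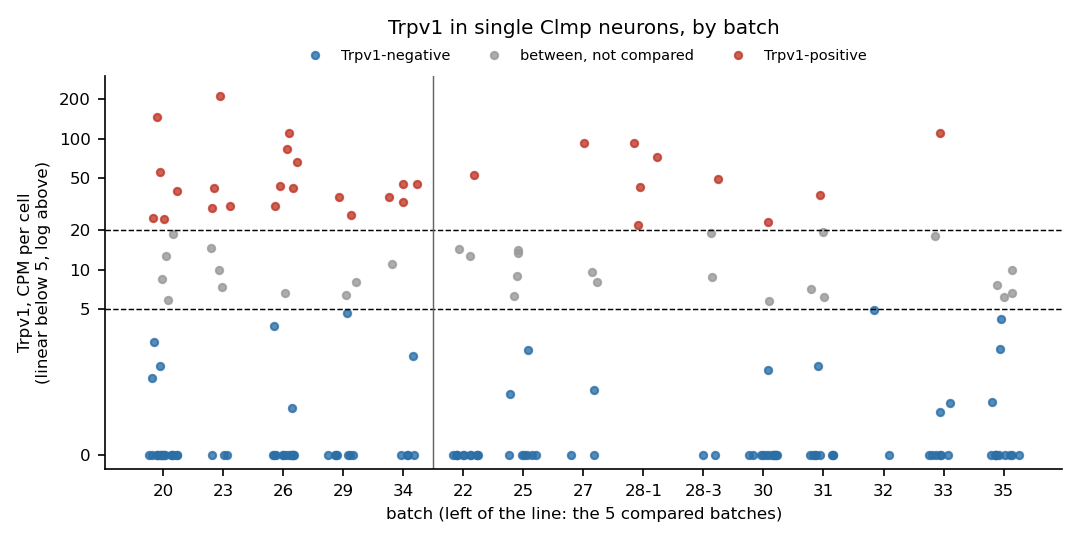
Trpv1 in each of the 179 Clmp neurons (CPM on the vertical axis, linear below 5 and logarithmic above), by batch; dashed lines mark 5 and 20 CPM, and colour marks the side. The 5 batches left of the vertical line held at least 2 cells on each side, and batch 28-1 held 4 positive cells and no negative ones.

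Positive cells made up 17.3% of the Clmp neurons (31 of 179, exact 95% interval 12.1 to 23.7, counting error only). The share differed from batch to batch. Batch 28-1 had 4 positive cells among 4 Clmp neurons, batches 23 and 34 had 4 of 10 each, and batches 25, 32 and 35 had 0 of 12, 0 of 2 and 0 of 17. In neurons with under 5 CPM of Clmp that passed the same other limits, which are called Clmp-low neurons below, 17 of 232 (7.33%, 4.33 to 11.5) were positive. After each cell was thinned to 100000 UMIs, at least 1 Trpv1 UMI remained in 32.4% of Clmp neurons and 24.1% of Clmp-low neurons. Before thinning, 55.9% and 66.8% had no Trpv1 UMI. These shares pool cells of different batches and were not tested.

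Of the transcripts known for peptidergic nociceptors, Calca, Tac1 and Kit were at higher levels in the Clmp neurons than in the Clmp-low neurons, and Calcb and Ramp1 were not. Calca, which encodes CGRP, averaged 1578 ± 338 CPM (SD, 15 batches) in the Clmp neurons and 410.1 ± 139 CPM (16 batches) in the Clmp-low neurons. Tac1, the precursor of substance P, averaged 456 ± 201 and 114 ± 57.4 CPM. Kit, the stem cell factor receptor, averaged 189 ± 89.2 and 10.8 ± 7.5 CPM. Calcb, which encodes the second CGRP, went the other way, at 71.7 ± 78.9 and 120.3 ± 106 CPM, and so did Ramp1, a CGRP receptor subunit, at 0.234 ± 0.545 and 2.38 ± 4.97 CPM. Markers of the non-peptidergic class differed in level. Of these, Gzmbl3 averaged 8.7 ± 8.3 CPM against 122 ± 77.2, and Lpar3 4.8 ± 6.7 against 33.6 ± 24.6, whereas P2rx3, the ATP-gated channel, was well above 0 in the Clmp neurons too, at 183 ± 40.3 CPM against 393 ± 67.2. Nefh, the heavy neurofilament of myelinated neurons, was present at 315 ± 95.7 CPM against 187 ± 40.8. These levels describe the cells and were not tested, because Clmp chose them.

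The positive and negative cells of the 5 compared batches (20, 23, 26, 29 and 34) gave 10 sums of 748027 to 6638946 UMIs. The median UMIs per cell averaged 416117 over batches on the positive side and 274815 on the negative side, and were higher on the positive side in 3 of 5 batches (exact sign-flip test over batches, two-sided p = 0.25, where 0.0625 is the smallest p that 5 batches allow). The medians of detected genes averaged 9826 and 9114 (exact p = 0.25). The mitochondrial share of UMIs averaged 0.893% and 0.910% (exact p = 0.8125). The summed level of 6 core glial genes was 66.9 ± 50.7 CPM on the positive side (range 31.4 to 151) and 77.9 ± 16.7 CPM on the negative side (55.7 to 91.5), and none of the 6 was at 0 on either side. The batch medians of the same sum per cell averaged 55.7 and 51.0 CPM, a difference of 4.71 (exact p = 0.875). The 14 immune and blood genes of the list that the counts hold summed to 21.9 ± 30.1 and 28.2 ± 16.8 CPM. Of these, 5 were at 0 on both sides, Ptprc and Tyrobp among them. The 11 fibroblast and vessel genes of the list that the counts hold summed to 61.9 ± 45.6 and 38.6 ± 7.34 CPM. The part of depth and of these other RNAs in the results below was not tested, except where a value without them is given.

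Trpv1, which split the cells, and the other genes of the rule were left out of the counts. No other gene passed the test between Trpv1-positive and Trpv1-negative Clmp neurons. Of 9390 genes tested, 0 had an adjusted p under 0.05 (0.0% called; edgeR quasi-likelihood test with batch as a term, Benjamini-Hochberg adjustment). Without adjustment, 137 genes (1.46%) were higher and 127 (1.35%) lower in the positive cells at p under 0.05. The positive sum was the higher one in all 5 batches for 266 genes (2.83%) and the lower one in all 5 for 248 genes (2.64%). The unadjusted 95% interval of a gene's log2 fold change reached 0.66 to either side at the median gene. On the same sums DESeq2 called 2 genes, limma voom 1 and edgeR with bias-adjusted deviances 1, and these were Ifitm1 in all 3 and Tspan8 in DESeq2. Leaving out the filter on low counts gave 27 calls, and requiring at least 50 CPM of Trpv1 against 0 UMIs gave 23, on 5 positive and 28 negative cells of 2 batches.

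None of the 5 peptide transcripts of the known set passed the test, and each had an interval that includes 0. Calca measured 1819, 2065, 1365, 1032 and 2204 CPM in the positive sums of batches 20, 23, 26, 29 and 34, and 1457, 1832, 1768, 2389 and 1300 CPM in the negative sums. The positive sum was higher in 3 of 5 batches, and the groups overlapped. The log2 fold change of Calca was -0.06 (95% interval -0.63 to 0.51), which leaves room for anything from 0.646 to 1.43 times the negative level. Tac1 measured 855, 973, 314, 302 and 694 CPM in the positive sums against 479, 544, 295, 401 and 426 CPM. It was higher in 4 of 5 batches with a log2 fold change of 0.42 (-0.01 to 0.85; adjusted p = 0.999), an interval that just includes 0. Adcyap1, the precursor of the peptide PACAP, averaged 674 ± 189 and 693 ± 84.4 CPM (log2 fold change -0.07, interval -0.43 to 0.28). Calcb stood at 470.1 CPM in the positive sum of batch 23 and at 10.7 to 50.5 CPM in the other 4 positive sums, against 23.0 to 98.5 CPM in the negative sums. Its fold change was -0.19 (-1.27 to 0.89), and its sign differed between settings. Gal, the precursor of galanin, averaged 1476 ± 540.2 and 1896 ± 710.1 CPM (-0.35, interval -1.14 to 0.45). It was lower on the positive side in 4 of 5 batches, the exception being batch 34, whose negative sum held 639.9 CPM.

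**Figure D2:**
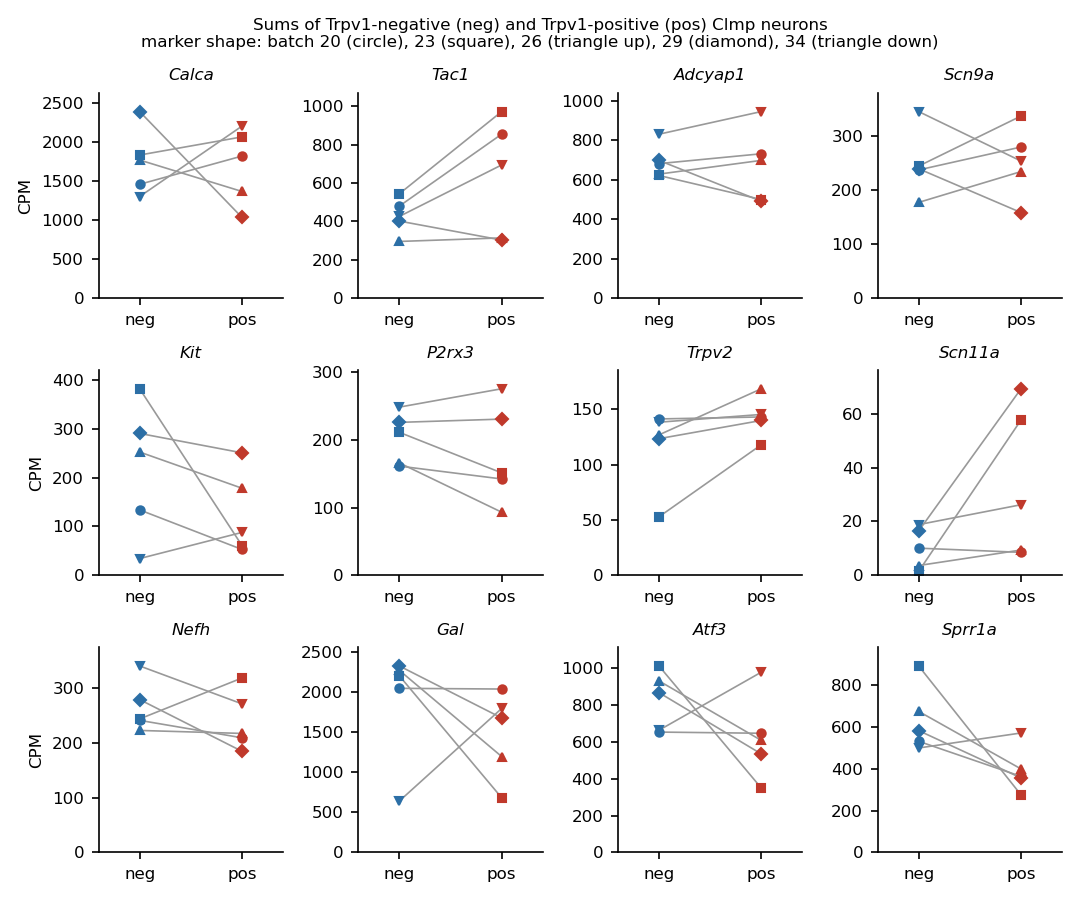
CPM of 12 known nociceptor and injury genes in the Trpv1-negative (left, blue) and Trpv1-positive (right, red) sum of each compared batch; lines join the sums of 1 batch, marker shapes name the batch, and every axis starts at 0. The lines of Calca and Adcyap1 cross, Trpv2 was higher in all 5 batches, and none of the 12 genes passed the test.

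Among growth factor receptors, Kit measured 52.8, 60.7, 178, 251 and 87.8 CPM in the positive sums against 134, 382, 253, 291 and 34.1 CPM. It was lower in the positive sum of 4 batches and higher in batch 34 (log2 fold change -0.70, interval -1.60 to 0.19; adjusted p = 0.999). The difference between the sides did not pass the test.

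Channels were examined next. Trpv2, a relative of Trpv1 in the same channel family, measured 143, 118, 169, 139.9 and 145 CPM in the positive sums against 141, 52.8, 127, 123 and 138 CPM. It was higher in 5 of 5 batches, but by little outside batch 23, and the log2 fold change was 0.34 (-0.07 to 0.75). Trpa1, the irritant channel often found beside Trpv1, was too low to be tested. It averaged 9.77 ± 12.7 CPM in the positive and 7.31 ± 3.71 CPM in the negative sums, and 35.5% of positive and 35.6% of negative cells had a UMI. Trpv3, a warmth-gated relative best known in skin, had a UMI in 1 of 31 and 1 of 118 cells. Pirt, a membrane protein that binds Trpv1, averaged 6.54 ± 2.88 and 3.45 ± 2.12 CPM and was also too low to be tested.

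The sodium channels of nociceptors gave wide intervals. Scn11a, which encodes the persistent-current channel Nav1.9, measured 8.52, 57.8, 9.39, 69.4 and 26.2 CPM in the positive sums against 10.1, 1.43, 3.61, 16.5 and 18.8 CPM. It was higher in 4 of 5 batches, most in batches 23 and 29, with a log2 fold change of 1.48 (0.14 to 2.82; adjusted p = 0.999). Scn10a, for the tetrodotoxin-resistant Nav1.8, averaged 43.0 ± 35.8 and 34.7 ± 37.5 CPM (0.37, interval -0.43 to 1.17). Scn9a, for Nav1.7, was closest to level at 252 ± 65.3 and 248 ± 60.6 CPM (0.02, interval -0.37 to 0.41).

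P2rx3 averaged 179 ± 73.3 and 203 ± 37.9 CPM (-0.26, interval -0.63 to 0.10). Asic3, the acid-sensing channel, averaged 247 ± 148 and 222 ± 107 CPM (-0.05, interval -0.88 to 0.78), and Piezo2, the touch channel, 59.2 ± 35.0 and 39.9 ± 21.2 CPM (0.42, interval -0.94 to 1.78). Prkce, which encodes protein kinase C epsilon, averaged 15.0 ± 6.50 and 9.81 ± 7.64 CPM (0.86, interval -0.53 to 2.26). Oprm1, the mu opioid receptor, averaged 11.8 ± 9.53 and 5.11 ± 3.73 CPM (1.04, interval -0.92 to 2.99). Nefh averaged 240.4 ± 54.1 and 266 ± 46.7 CPM (-0.16, interval -0.50 to 0.19). None of these passed the test, and for the low genes Prkce and Oprm1 the intervals take in several-fold changes in the positive direction.

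The 5 injury and growth genes of the known set had values below 0 in the compared batches, and none passed the test. Sprr1a, a small proline-rich protein made by injured neurons, measured 363, 275, 399, 356 and 570.3 CPM in the positive sums against 531, 890.4, 674, 582 and 499 CPM. It was lower in 4 of 5 batches, batch 34 being the exception, with a log2 fold change of -0.70 (-1.19 to -0.22; adjusted p = 0.999). Atf3, a stress-induced transcription factor, averaged 623 ± 229 and 825 ± 161 CPM (-0.46, interval -1.01 to 0.09), and Sox11, a growth-linked transcription factor, 28.2 ± 21.2 and 38.2 ± 16.8 CPM (-0.63, interval -1.48 to 0.22). Jun (-0.23, interval -0.66 to 0.19) and Gap43, the growth cone protein (-0.16, interval -0.71 to 0.38), were nearer to level. The positive sum was the higher one in 1 of 5 batches for Sprr1a, Atf3, Sox11 and Jun and in 2 of 5 for Gap43. When the negative side was limited to cells with at least 300000 UMIs, which also left out batch 23, the values of Sprr1a, Atf3, Jun and Gap43 were 0.01, 0.16, 0.09 and 0.35. Without batch 23 alone they were -0.46, -0.20, -0.11 and 0.07. In the batches with 1 positive cell, described below, Sprr1a, Atf3, Sox11, Jun and Gap43 had values of -0.07, -0.10, -0.45, 0.03 and 0.06. The cells between the thresholds in the compared batches did not on average lie between the sides. On totals without scaling factors they held 296 ± 191 CPM of Sprr1a, beside 390 in the positive and 618 in the negative cells. For Atf3, Jun and Gap43 they were also below both sides, and for Sox11 just above both.

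The 10 genes with the smallest p-values, among those with a gene symbol and at least 50 CPM on 1 side, were picked after their values were seen. They were Ifitm1, Tspan8, Gda, Avil, Gcc2, Ucn, Chst8, Atp2b4, Lrmp and Ngly1, 6 of them higher and 4 lower in the positive cells. Ifitm1, an interferon-induced membrane protein, came nearest to the threshold. It measured 51.1, 74.2, 27.8, 26.7 and 34.3 CPM in the positive sums against 115, 359.6, 105, 80.5 and 58.9 CPM in the negative sums. The positive sum was the lower one in each of the 5 batches, though the groups overlapped, and the negative sum of batch 23 stood far above the others. Its log2 fold change came to -1.57 with an SE of 0.24 (adjusted p = 0.122), and over the other settings it ran from -3.26 to -0.84 with an adjusted p from 1.91e-07 to 0.999. Without batch 23 it was -1.37 (adjusted p = 0.63), without batch 34 it was -1.75 (adjusted p = 0.041), and without cells rich in glial RNA it was -1.63 (adjusted p = 0.131). The 11 cells between the thresholds in the same batches held 71.5 ± 54.5 CPM of Ifitm1, beside 42.9 ± 21.3 CPM in the positive and 138 ± 113 CPM in the negative cells, all on totals without scaling factors.

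Tspan8, a tetraspanin, measured 436, 398, 133, 336 and 253 CPM in the positive sums against 271, 149.8, 103, 118 and 165 CPM. It was higher in 5 of 5 batches (log2 fold change 0.91 ± 0.18; adjusted p = 0.999), and the cells between the thresholds lay between the sides at 229 ± 72.5 CPM beside 309.5 ± 118 and 158 ± 65.9 CPM without scaling factors. Ucn, which encodes the peptide urocortin, measured 546, 169.5, 325, 469 and 492 CPM against 395, 69.9, 299.9, 186 and 285 CPM (0.77, interval 0.36 to 1.18). Avil, an actin-binding protein of sensory neurons, averaged 332 ± 111 and 212 ± 78.6 CPM (0.66, interval 0.32 to 1.00). Gcc2, a Golgi protein, averaged 136 ± 19.7 and 83.7 ± 19.8 CPM (0.71). Its lowest positive sum, 114 CPM, lay just above its highest negative sum, 110 CPM. How many of all genes had sums that did not overlap was not counted. Ngly1, which removes sugar chains from misfolded proteins, averaged 110.1 ± 40.4 and 59.3 ± 9.59 CPM (0.82). Lrmp, a membrane protein of the endoplasmic reticulum, averaged 52.2 ± 44.6 and 9.92 ± 3.14 CPM (1.88), with its high values in batches 23 and 29.

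On the lower side, Gda, the guanine deaminase gene, which is itself a marker of this class of neuron, measured 65.6, 83.3, 20.7, 41.7 and 58.5 CPM in the positive sums against 68.5, 164, 81.1, 116 and 158 CPM. It was lower in 5 of 5 batches, but nearly level in batch 20 (log2 fold change -1.18 ± 0.26; adjusted p = 0.999). Chst8, a sulfotransferase, averaged 31.5 ± 12.6 and 64.0 ± 24.6 CPM (-1.01) and was lower in 5 of 5. Atp2b4, a calcium pump of the plasma membrane, averaged 234 ± 98.7 and 420.3 ± 141 CPM (-0.89) and was lower in 4 of 5, batch 20 being level.

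**Figure D3:**
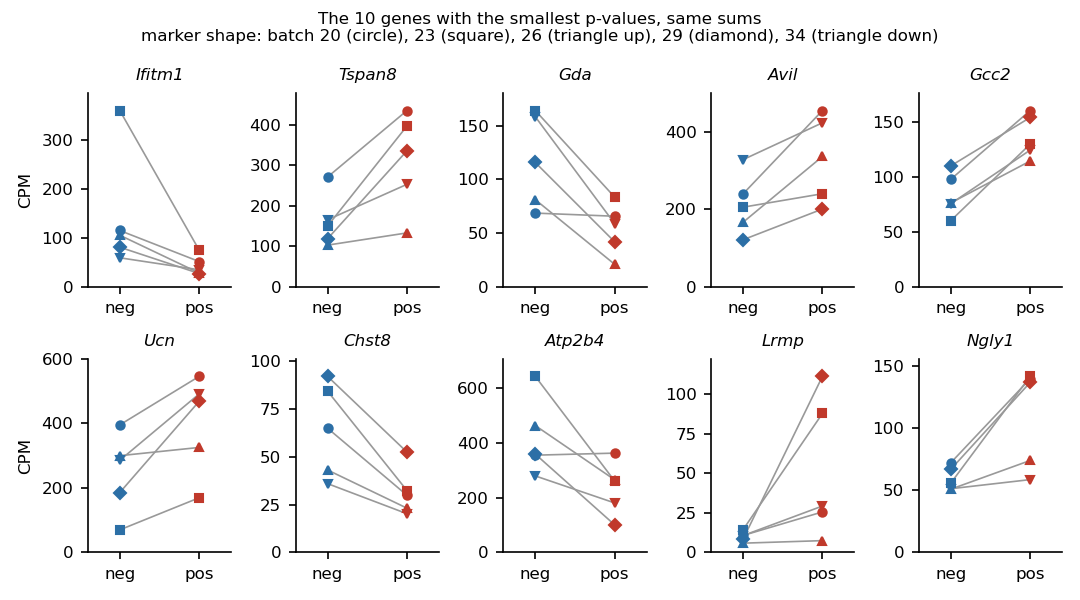
CPM of the 10 genes with the smallest p-values in the Trpv1-negative (left, blue) and Trpv1-positive (right, red) sum of each compared batch, with lines joining the sums of 1 batch. The genes were chosen for these values, so the shared slopes describe the choice; Ifitm1 was lower and Tspan8 higher in the positive sum of all 5 batches.

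A further 6 batches (22, 27, 28-3, 30, 31 and 33) held exactly 1 Trpv1-positive Clmp neuron each, beside 46 negative cells, and took no part in the comparison above. Fitted on their own, they gave 0 calls among 7144 genes (0.0% called; 264 genes at an unadjusted p under 0.05 by edgeR). Of the 10 genes, 9 could be tested there and 8 had the same direction, the exception being Ngly1 (-0.0009). The share of all genes that kept their direction was not counted, so nothing is drawn from the 8. Chst8 (-0.64) and Atp2b4 (-0.69) were lower in 3 of 6 batches and higher in 3, and Ucn was likewise split. Ifitm1 was lower in the positive cell of 5 of the 6 batches, with a log2 fold change of -1.56 ± 0.54 (adjusted p = 1.00). Its positive cells held 49.99, 2.79, 62.8, 16.8, 8.86 and 5.42 CPM against 83.5, 32.7, 38.3, 72.3, 74.6 and 17.6 CPM in the negative sums, batch 28-3 being the exception. It was the only one of the 9 with an unadjusted p under 0.05. Tspan8 was higher in 4 of 6 (0.88 ± 0.42) and Gda lower in 5 of 6 (-1.86), while Avil (0.21), Ucn (0.13) and Gcc2 (0.03) had smaller changes than in the 5 compared batches.

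Of the known genes, those with the smallest unadjusted p in these 6 batches are given first, picked after their values were seen. Some kept their direction and Piezo2 did not. The share of all genes with the same direction in 5 or 6 of these batches was not counted, so nothing is drawn from them. Tac1 was higher in the positive cell of 5 of 6 batches (log2 fold change 0.72 ± 0.22), with 340.3, 858, 133, 481, 585 and 728 CPM against 429, 295, 76.5, 330.4, 328 and 420.5 CPM. Kit was lower in 5 of 6 (-1.24 ± 0.47) and Gal lower in 5 of 6 (-0.51 ± 0.18). Piezo2 and Asic3 were lower in 6 of 6, at -3.19 ± 0.77 and -2.23 ± 0.63, whereas in the 5 compared batches they stood at 0.42 and -0.05. The adjusted p of each of these 5 genes was 1.00. Other known genes changed sign. Adcyap1 (0.50 ± 0.20, higher in 4 of 6), Calcb (1.09), Calca (0.16), Gap43 (0.06) and Jun (0.03) were above 0 here and below 0 in the 5 compared batches. Each positive value here rests on 1 cell of 143284 to 620078 UMIs, set against a sum of 2 to 13 negative cells. Cell-to-cell and batch-to-batch spread therefore cannot be told apart. A gene carried by only some cells can be lower in 1 cell than in such a sum without a difference between the sides. Over all Clmp neurons, Piezo2 had a UMI in 61.3% of positive and 78.8% of negative cells. What part this had in the low values of Piezo2 and Asic3 was not tested. Over all 11 batches together, 0 genes passed the test (337 at an unadjusted p under 0.05 by edgeR), and Ifitm1 stood at -1.54 (adjusted p = 0.103).

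**Figure D4:**
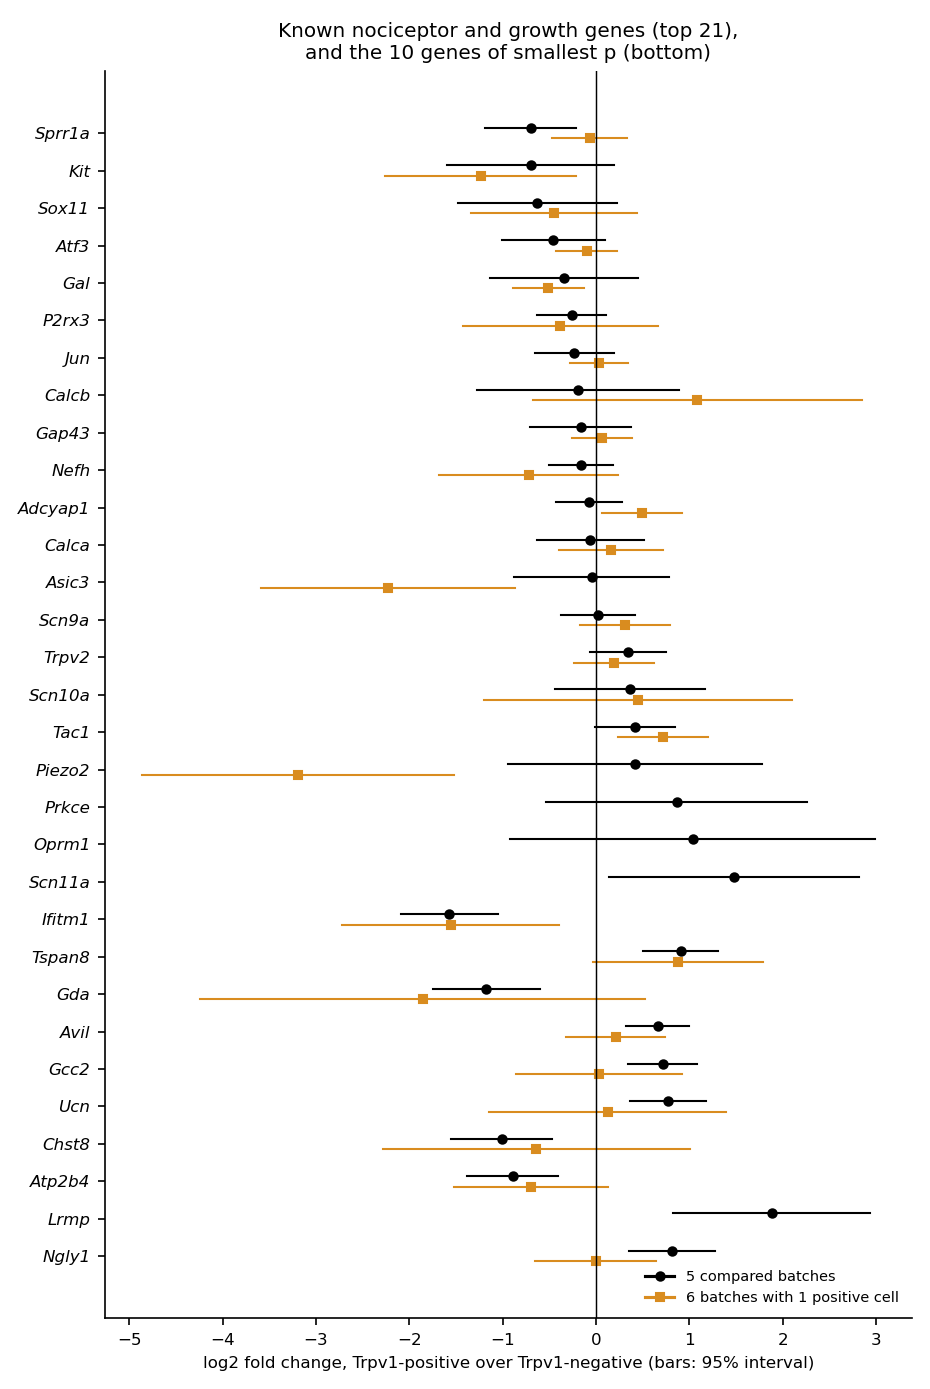
Log2 fold change of Trpv1-positive over Trpv1-negative Clmp neurons for 21 known genes (upper rows, ordered by value) and the 10 genes of smallest p (lower rows), in the 5 compared batches (black circles) and the 6 batches with 1 positive cell (orange squares), with 95% intervals. Ifitm1 lies near -1.6 in both sets, while Piezo2 and Asic3 lie far apart between them, and 4 genes were too low to be tested in the second set.

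Lists of genes with a shared role were described by their counts and medians, beside those of all 9390 genes (median log2 fold change -0.01, quartiles -0.19 and 0.20; 4570 genes above 0 and 4820 below). No member of any of the 27 lists passed the test. Among 16 tested TRP, acid-sensing, ATP-gated and mechanical channel genes, 10 were above 0 and 6 below, with a median of 0.20. At an unadjusted p under 0.05 by edgeR the list held Asic1, another acid-sensing channel (103 ± 66.1 and 59.2 ± 31.4 CPM), and Tmem150c, a membrane protein linked to mechanical currents (22.2 ± 2.42 and 8.44 ± 4.47 CPM). With equal weight per cell the list's median was 0.09 beside 0.06 for all genes, and over the 11 batches it was -0.17 beside -0.05, so its sign did not hold. The 22 tested neuropeptide and peptide-processing genes had a median of -0.03, the 13 sodium channel genes 0.09, the 30 potassium and HCN channel genes 0.03 and the 35 genes of Trpv1 partners and sensitising signalling 0.04. In the last list Camk2b, a calcium-dependent kinase subunit, was higher in 5 of 5 batches (124 ± 28.2 and 93.6 ± 10.4 CPM; log2 fold change 0.38). Of 10 tested peptidergic markers, 3 were above 0 and 7 below (median -0.13). These genes and those named in the next paragraph were chosen after their values were seen.

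In the growth-related lists more genes lay below 0 than above, beside 4820 of 9390 below 0 over all genes. Of 44 regeneration-associated genes, 35 were below 0 (median -0.18), and the list held Arg1 (184 ± 131 and 359.5 ± 65.9 CPM; lower in 5 of 5 batches), Gadd45g (364 ± 75.7 and 466 ± 62.2 CPM; lower in 5 of 5) and Sprr1a among the genes at an unadjusted p under 0.05 by edgeR. Of 51 growth cone and cytoskeleton genes, 41 were below 0 (median -0.14), and of 67 nuclear genes of the respiratory chain, 59 (median -0.12). Those medians were -0.11, -0.05 and -0.03 over the 11 batches, where the median of all genes was -0.05, and were -0.14, -0.08 and -0.09 with equal weight per cell, where it was 0.06. Subtype transcription factors (34 tested, median -0.12) included Runx1, a factor of nociceptor diversification, at 78.2 ± 26.9 against 116 ± 40.4 CPM and lower in 5 of 5 batches. Among 8 opioid, cannabinoid and other inhibitory receptors (median 0.16), Gabbr2, a GABA-B receptor subunit, stood at 102 ± 42.0 against 65.8 ± 14.2 CPM and was higher in 5 of 5. Rab27b, a GTPase of vesicle release, stood at 60.4 ± 25.2 against 30.3 ± 9.67 CPM and was also higher in 5 of 5. Mbp, the myelin gene of Schwann cells, stood at 28.5 ± 20.1 against 57.3 ± 9.38 CPM, lower in 4 of 5 batches.

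**Figure D5:**
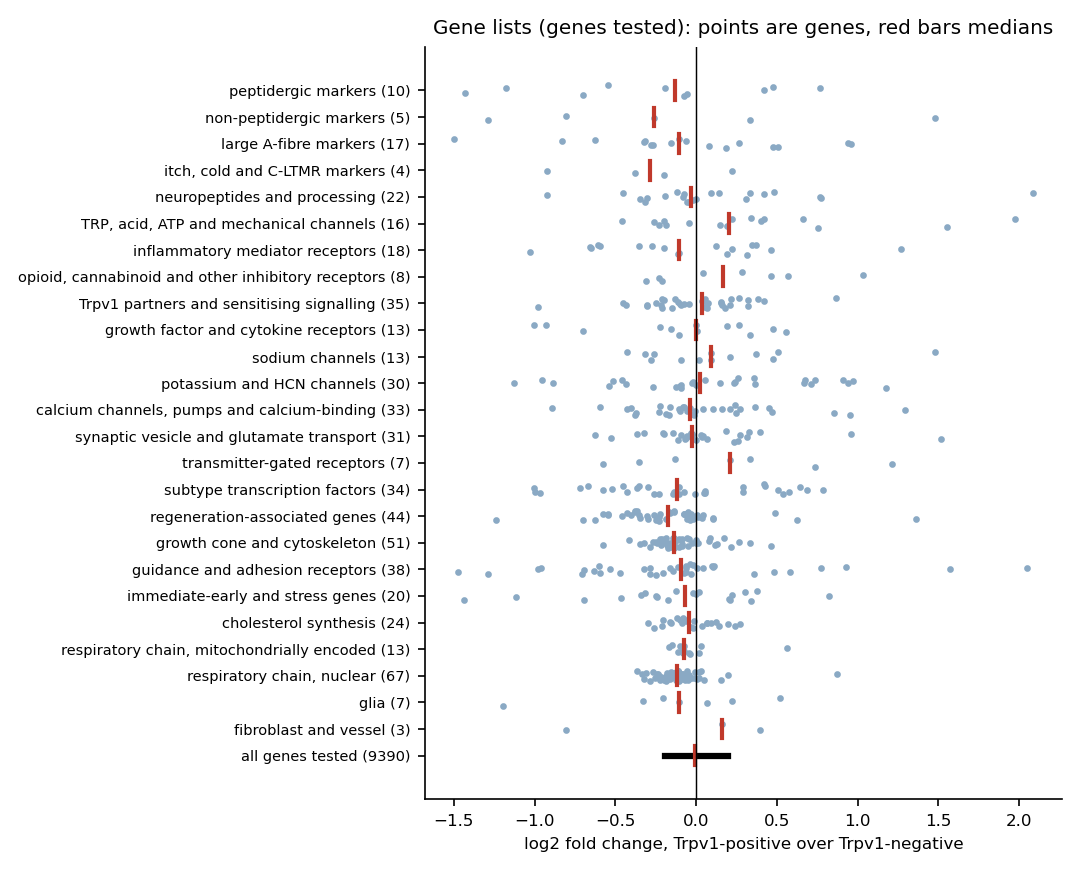
Log2 fold change (horizontal axis) of each tested member of the gene lists with at least 3 tested genes, with a red bar at the list's median; the black bar in the last row spans the quartiles of all 9390 genes. Medians ran from -0.29 for itch, cold and C-LTMR markers to 0.21 for transmitter-gated receptors, and no member passed the test.

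The same split by Trpv1 was made in the Clmp-low neurons, where P2rx3 averaged 393 ± 67.2 CPM. No marker beyond the limits on Clmp, Sst and Nppb chose these cells, so they may be of several types. Whether the split separates such types was not tested. In 3 batches (23, 24 and 25) with at least 2 cells on both sides, 9 positive cells were set against 32 negative cells. Of 10899 genes, 21 were higher (0.193%) and 91 lower (0.835%) in the positive cells at an adjusted p under 0.05 by edgeR. That count rested on single batches: it was 6 without batch 23, 2 without batch 24 and 560.0 without batch 25. None of the 21 tested genes of the known set was called there. The side effect differed between Clmp and Clmp-low neurons for 2 genes (0.0184% called; edgeR contrast of the side effects), with 998 genes at an unadjusted p under 0.05. Batch 23 gave cells to both classes.

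Ucn was 1 of the 2. In the Clmp-low neurons it measured 28.0, 70.8 and 30.6 CPM in the positive sums of batches 23, 24 and 25. The negative sums held 275, 309 and 325 CPM (log2 fold change -2.96 ± 0.32, adjusted p = 0.000814 by edgeR). Ucn was named because it passed on these sums, so their separation is no further support. In the Clmp neurons the positive sums were the higher ones (0.77), and the difference of the log2 fold changes was 3.73 ± 0.39 (adjusted p = 0.000955). It passed the threshold under every alternative run for it, with a difference of 3.25 to 4.23. Slc7a14, a gene of the cationic amino acid transporter family, measured 2.54, 13.6 and 23.0 CPM against 55.5, 104 and 190.2 CPM in the Clmp-low neurons, and 213 ± 43.4 against 268 ± 80.1 CPM in the Clmp neurons. Its difference was 2.97 ± 0.40 (adjusted p = 0.0132), and the call was lost with thinned cells (2.37; adjusted p = 0.148), with P2rx3-carrying cells alone (2.59; adjusted p = 0.0637) and without Clmp-low batch 24 (3.18; adjusted p = 0.0776). Ifitm1 stood at 23.1 ± 10.7 and 33.0 ± 15.3 CPM in the Clmp-low neurons (-0.52; adjusted p = 0.583), and its difference from the Clmp neurons did not pass (adjusted p = 0.575). Tspan8 was higher in the positive sum of 3 of 3 Clmp-low batches, at 709 ± 319 and 298.5 ± 54.0 CPM (1.14; adjusted p = 0.0744).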

How the data were processed

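Single rat neurons were measured in 17 batches, of which 16 were used, because all 96 cells of batch 21 repeated the counts of batch 20. Per the submitters' processing notes, the authors used UMI-tools, STAR, featureCounts, Subread and SAMtools with Rnor_6.0; the sources used here give neither versions nor the strand setting. Each deposited table gives the UMI count of 32883 genes in every cell, with 3812280 to 26065847 UMIs in a batch.

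Counts were summed per batch and side and fitted with edgeR 4.0.16, using its quasi-likelihood test with terms for batch and side, TMM scaling and filterByExpr set to 10 counts, over all genes, with Benjamini-Hochberg adjustment and a threshold of 0.05. Trpv1, Clmp, Sst and Nppb stayed in the fit and out of all counts. CPM of the 5 compared batches use TMM-scaled totals; levels by class, of the cells between the thresholds, of genes too low to be tested, and of single Clmp-low or 1-cell sums use plain totals. Each standard error was taken from the F statistic as |log2 fold change| / sqrt(F). The fit was also run on counts simulated from its own model, with means and dispersions taken from these sums. That run cannot show whether sums of few cells follow the model.

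Genes were named from a fixed set of 25, from called genes by rank (none were), and otherwise after their values were seen, as stated; 1 gene of the set is not reported here. The members and lists were chosen with earlier results of these data known. Alternatives were DESeq2 1.42.0, limma 3.58.1, other scaling, filters, thresholds and thinning, and leaving out batches. With limma, voom was run, and so was a fit with equal weight per cell. That fit used the mean over cells of each cell's log2 of CPM plus 10. No doublet caller was run, since cells were picked singly.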

Additional observations from a re-analysis of the deposited data

Results flagged for a closer look

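Among 66 groups of 5 batch sums (33 genes on 2 sides), 6 held 1 sum far from the other 4, where chance flags about 1 in 20 groups. Calcb stood at 470.1 CPM in the positive sum of batch 23. In the negative sum of the same batch, which holds 3 cells, Trpv2 stood low at 52.8 CPM, Scn10a high at 99.9 CPM and Ifitm1 high at 359.6 CPM. Asic3 stood high at 413 CPM in the negative sum of batch 29, and Gal low at 639.9 CPM in the negative sum of batch 34.

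The Trpv1 split differed between Clmp and Clmp-low neurons for 2 genes by the contrast of the side effects. The difference of log2 fold changes was 3.73 for Ucn and 2.97 for Slc7a14.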

How the results depend on the processing

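For 32 genes named in the text, 690 values under alternatives were compared with the reported ones: 619 kept direction and call, 16 became calls and 55 changed sign, and 16 genes never changed sign. The count of genes called, 0 as reported, became 27 without a filter on low counts, 2 with DESeq2, 1 with limma voom, 1 with bias-adjusted deviances, 23 at Trpv1 of 50 CPM against 0 UMIs, 1 (Cartpt) with only deep negative cells, and 0 to 1 with a batch left out. With no replicate block it stayed at 0. The Clmp-low count of 112 became 44 with RLE factors and 23 with thinned cells, and ran from 2 to 560.0 with a Clmp-low batch left out; the count of differing genes, 2, ran from 1 to 123. The difference of the core glial sum per cell, 4.71 CPM from batch medians, was -0.084 from batch means of log10 values. The causes were not tested.

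These log2 fold changes changed sign. With thinned cells and sides kept: Calca 0.063, Calcb 0.24, Adcyap1 0.034, Scn9a -0.090. With the rule applied again after thinning: Calca 0.20, Calcb 0.31, Adcyap1 0.15, Trpv2 -0.20, Scn9a -0.18, Scn10a -0.25, Slc7a14 0.0070. At Trpv1 of 50 CPM against 0 UMIs: Calca 0.12, Calcb 0.34, Adcyap1 0.46, Scn11a -0.36, Prkce -0.21. With at least 3 cells a side: Calca 0.22, Calcb 0.25, Adcyap1 0.034, Piezo2 -0.097, Asic3 0.18. With at least 1 cell: Calca 0.064, Calcb 0.41, Adcyap1 0.23, Piezo2 -1.07. With equal weight per cell: Calca 0.082, Calcb 0.57, Adcyap1 0.040, Scn9a -0.086. With only deep negative cells: Adcyap1 0.24, Scn9a -0.081, Gal 0.16, Atf3 0.16, Sprr1a 0.010, Gap43 0.35, Jun 0.089. Calcb also turned to 0.44 with limma voom, 0.23 with bias-adjusted deviances, 0.81 with no replicate block and 0.44 at Clmp of 60 CPM, Scn9a to -0.013 without a filter, and Asic3 to 0.14 with no replicate block. With a batch left out, Calca ran from -0.27 to 0.22, Calcb from -0.83 to 0.25, Adcyap1 from -0.14 to 0.034, Scn9a from -0.089 to 0.17, Piezo2 from -0.097 to 1.08, Asic3 from -0.43 to 0.40 and Gap43 from -0.37 to 0.072.

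The limits are depth and number: 5 batches, 2 to 6 positive cells in each, and single negative cells whose count of 0 allows up to 29.9 CPM of Trpv1. A missed threshold does not show that the sides are alike.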
